A study of Homo sapiens with 8 samples.

Results

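The genes described here are 9 antiviral and RNA-sensing genes, IFITM1, IFITM2, IFITM3, BST2, ISG15, IFI6, EIF2AK2, ADAR and IFIH1. They were chosen by name from their known roles, with earlier results of these data known. They were found in the deposited tables through the RefSeq accessions of their transcripts and account for 18 of 49235 transcripts and 9 of 25558 genes. The study sequenced rRNA-depleted total RNA of H1 cells, a widely used line of human embryonic stem cells, here grown without feeders, to examine the RNA exosome in these cells. In one line doxycycline switches on a hairpin that targets EXOSC3, a core subunit of the exosome (shEXOSC3), and in the other it switches on a non-silencing hairpin (shNS). There were 8 groups of 1 library each, shEXOSC3 with doxycycline, shEXOSC3 untreated, shNS with doxycycline and shNS untreated, on day 7 and the same 4 on day 5. All groups were H1 cells with a hairpin construct in medium with puromycin, and the sources used here do not say whether a line was a clone or a pool. Values are FPKM (fragments per kilobase of transcript, scaled to the mapped fragments of the library), summed over the transcripts of a gene, from 4 tables, 1 for each line on each day, that set the treated library beside the untreated one.

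Cells detect foreign RNA chiefly by its double-stranded form. IFIH1 (MDA5) binds long double-stranded RNA in the cytosol and signals through MAVS, EIF2AK2 (PKR) binds it and halts translation by phosphorylating the initiation factor eIF2, and ADAR edits adenosines of the cell's own double-stranded RNA to inosine, which keeps that RNA from being sensed. Signalling leads to interferons, which act through their receptors on genes with interferon-stimulated response elements in their promoters. IFITM1, IFITM2 and IFITM3 are membrane proteins that hinder the fusion of enveloped viruses with the cell, BST2 (tetherin) holds budding virions at the surface, ISG15 is a ubiquitin-like protein attached to other proteins, and IFI6 is a small interferon-induced membrane protein. Pluripotent stem cells are known to respond weakly to interferon while expressing some of these genes, IFITM1 among them, without it.

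Promoter sequences of 5 of the genes are shown because they hold the core of the interferon-stimulated response element. They are RefSeq sequences on GRCh38.p14, from 250 bases before the transcription start to 30 bases after it, read 5′ to 3′ on the gene's strand, with capitals on the core of the element, which is GAAA, any 2 bases and GAAA again.
IFITM1, chr11:313790-314069, forward strand: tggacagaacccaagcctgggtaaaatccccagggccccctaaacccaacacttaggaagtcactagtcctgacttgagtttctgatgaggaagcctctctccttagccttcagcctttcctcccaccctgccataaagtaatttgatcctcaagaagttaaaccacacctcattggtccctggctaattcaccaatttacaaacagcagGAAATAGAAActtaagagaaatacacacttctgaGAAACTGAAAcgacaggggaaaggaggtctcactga
IFITM3, chr11:320831-321110, reverse strand: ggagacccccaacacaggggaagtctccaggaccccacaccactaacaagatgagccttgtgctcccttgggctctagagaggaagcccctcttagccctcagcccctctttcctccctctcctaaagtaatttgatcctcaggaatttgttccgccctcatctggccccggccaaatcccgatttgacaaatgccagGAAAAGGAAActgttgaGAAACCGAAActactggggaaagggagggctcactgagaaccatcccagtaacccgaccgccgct
BST2, chr19:17405601-17405880, reverse strand: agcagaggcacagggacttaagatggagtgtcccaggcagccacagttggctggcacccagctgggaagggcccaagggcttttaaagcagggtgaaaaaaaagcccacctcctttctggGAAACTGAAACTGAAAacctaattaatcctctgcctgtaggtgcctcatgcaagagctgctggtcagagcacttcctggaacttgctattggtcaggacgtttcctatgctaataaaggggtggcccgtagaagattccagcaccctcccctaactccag
ISG15, chr1:1013247-1013526, forward strand: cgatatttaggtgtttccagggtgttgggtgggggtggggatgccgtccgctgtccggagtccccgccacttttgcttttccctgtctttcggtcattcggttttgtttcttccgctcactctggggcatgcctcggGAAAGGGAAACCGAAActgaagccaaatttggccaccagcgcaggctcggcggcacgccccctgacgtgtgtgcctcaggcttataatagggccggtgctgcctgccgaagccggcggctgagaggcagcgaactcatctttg
IFI6, chr1:27672163-27672442, reverse strand: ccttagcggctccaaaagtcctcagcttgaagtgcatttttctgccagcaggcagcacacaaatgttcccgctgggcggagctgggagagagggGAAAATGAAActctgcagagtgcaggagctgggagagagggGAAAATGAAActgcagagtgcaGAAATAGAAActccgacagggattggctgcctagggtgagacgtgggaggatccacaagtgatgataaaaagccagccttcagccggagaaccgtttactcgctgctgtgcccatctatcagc
In BST2 and ISG15 the capitals mark 2 matches that overlap. Of the 9 genes, 8 had a promoter window in the reference table, and 7 of those held this core on at least 1 of the strands within 300 bases. IFITM1, IFITM3, BST2 and ISG15 had 2 matches each, IFI6 and IFIH1 had 3 each and EIF2AK2 had 1, whereas the 3 windows of ADAR had none. Among all 35116 windows of that length, 1255 (3.57%) held the core, and counted by gene 1195 of 27305 (4.38%) did. The letters TTCNNNGAA, the core of the gamma-activated site, were found once in IFITM1 and in 2 places in BST2, where 1 of them, like that of IFITM1, overlaps a response element match, and in 2689 of all windows (7.66%). A match is a description of the letters only.

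IFITM1, IFITM2 and IFITM3 lie next to each other on chromosome 11 and share coding sequence, which limits how well their reads can be told apart. The longest run shared by IFITM1 and IFITM3 is 141 bases, from base 154 to base 294 of the IFITM1 coding sequence in GENCODE transcripts on GRCh38, and the 99 bases in capitals are also in IFITM2.
IFITM1 and IFITM3, shared run: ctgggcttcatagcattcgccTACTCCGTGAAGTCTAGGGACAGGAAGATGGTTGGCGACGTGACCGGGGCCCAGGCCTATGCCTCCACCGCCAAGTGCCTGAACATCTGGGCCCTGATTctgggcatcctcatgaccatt
Of the windows of 50 bases in the IFITM1 transcript, 12.2% also occur in IFITM3 and 6.20% in IFITM2. Of those in the IFITM3 transcript, 12.9% occur in IFITM1 and 6.72% in IFITM2. Reads from these stretches could have been given to any of the genes that share them, so small differences among the 3 genes are uncertain.

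The hairpin's target gave a check of the labels. Summed over its transcripts, EXOSC3 had 12.3 FPKM with doxycycline and 25.2 FPKM untreated in shEXOSC3 on day 7, and 11.3 and 25.2 FPKM on day 5. The shNS libraries had 27.4 FPKM with doxycycline and 30.3 FPKM untreated on day 7, and 27.8 and 27.3 FPKM on day 5. EXOSC3 was therefore at 48.9% and 45.0% of the untreated level in shEXOSC3 on days 7 and 5. Total depth is unknown. Judged by the step between low FPKM values, doxycycline libraries were 0.922 (day 7) and 1.01 (day 5) times as deep as untreated ones in shEXOSC3, and 1.34 and 1.59 times as deep in shNS, and the part of depth in the results was not tested. On day 7 between 6.21% and 7.16% of a library's FPKM belonged to its top 3 transcripts, and on day 5 between 23.8% and 27.6%. Of 9 measured markers of pluripotent stem cells, all had a mean of at least 1 FPKM. Their summed level was 2288 FPKM with doxycycline and 2691 FPKM untreated in shEXOSC3 on day 7, and 1852 and 2209 FPKM on day 5, against 2404 and 2622 FPKM and 1929 and 2178 FPKM in shNS. The sum was thus lower with doxycycline in all 4 pairs, with 9 and 6 of the 9 markers below their untreated level in shEXOSC3 on days 7 and 5, and 6 and 8 in shNS, and their part in the results was not tested. None (0) of 8 blood cell markers and none (0) of 8 mesendoderm markers reached that mean, and the summed blood markers lay between 0.553 and 2.08 FPKM. Of 6 neuroectoderm markers 2 reached that mean, NES at up to 105 FPKM and OTX2 at up to 42.1 FPKM, with sums between 93.0 and 136 FPKM. Of 8 trophoblast or amnion markers 3 reached it, none above 9.40 FPKM, with sums between 12.6 and 21.8 FPKM. Of 8 fibroblast markers 5 reached it, with DCN and LUM listed at 0 in every library and sums of 227 FPKM with doxycycline and 209 FPKM untreated in shEXOSC3 on day 7, 138 and 100 FPKM on day 5, against 169 and 183 FPKM and 108 and 99.2 FPKM in shNS. Most of the highest sum was THY1, at up to 197 FPKM, and the part of these markers in the results was not tested.

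The first question was at what level the 9 genes stood in these cells. IFITM1 was the most abundant, at 176 ± 34.1 FPKM (mean ± SD over the 8 libraries, which are 8 different groups), above 95.8% of the 13116 genes with a mean of at least 1 FPKM. ADAR followed with 66.1 ± 4.13 FPKM and BST2 with 60.0 ± 7.70 FPKM. These 2 means differ by less than the SD of BST2, a spread over different groups that does not measure whether their order holds. ADAR was the higher of the 2 except in shEXOSC3 with doxycycline on day 5, at 69.4 FPKM against 72.2 FPKM for BST2. IFITM3 averaged 37.9 ± 11.7 FPKM, IFITM2 25.3 ± 3.31 FPKM and EIF2AK2 24.3 ± 6.91 FPKM, with the means of IFITM2 and EIF2AK2 closer than their spread. ISG15 averaged 16.6 ± 10.5 FPKM and IFI6 4.45 ± 2.62 FPKM, and both owe their wide spread to a gap between the days. IFIH1 was lowest, at 0.287 ± 0.152 FPKM and never above 0.519 FPKM, so it was left out of the comparisons and of the counts below, which cover the other 8 genes. FPKM are values per length, and those of separate tables may differ in scale.

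**Figure D1:**
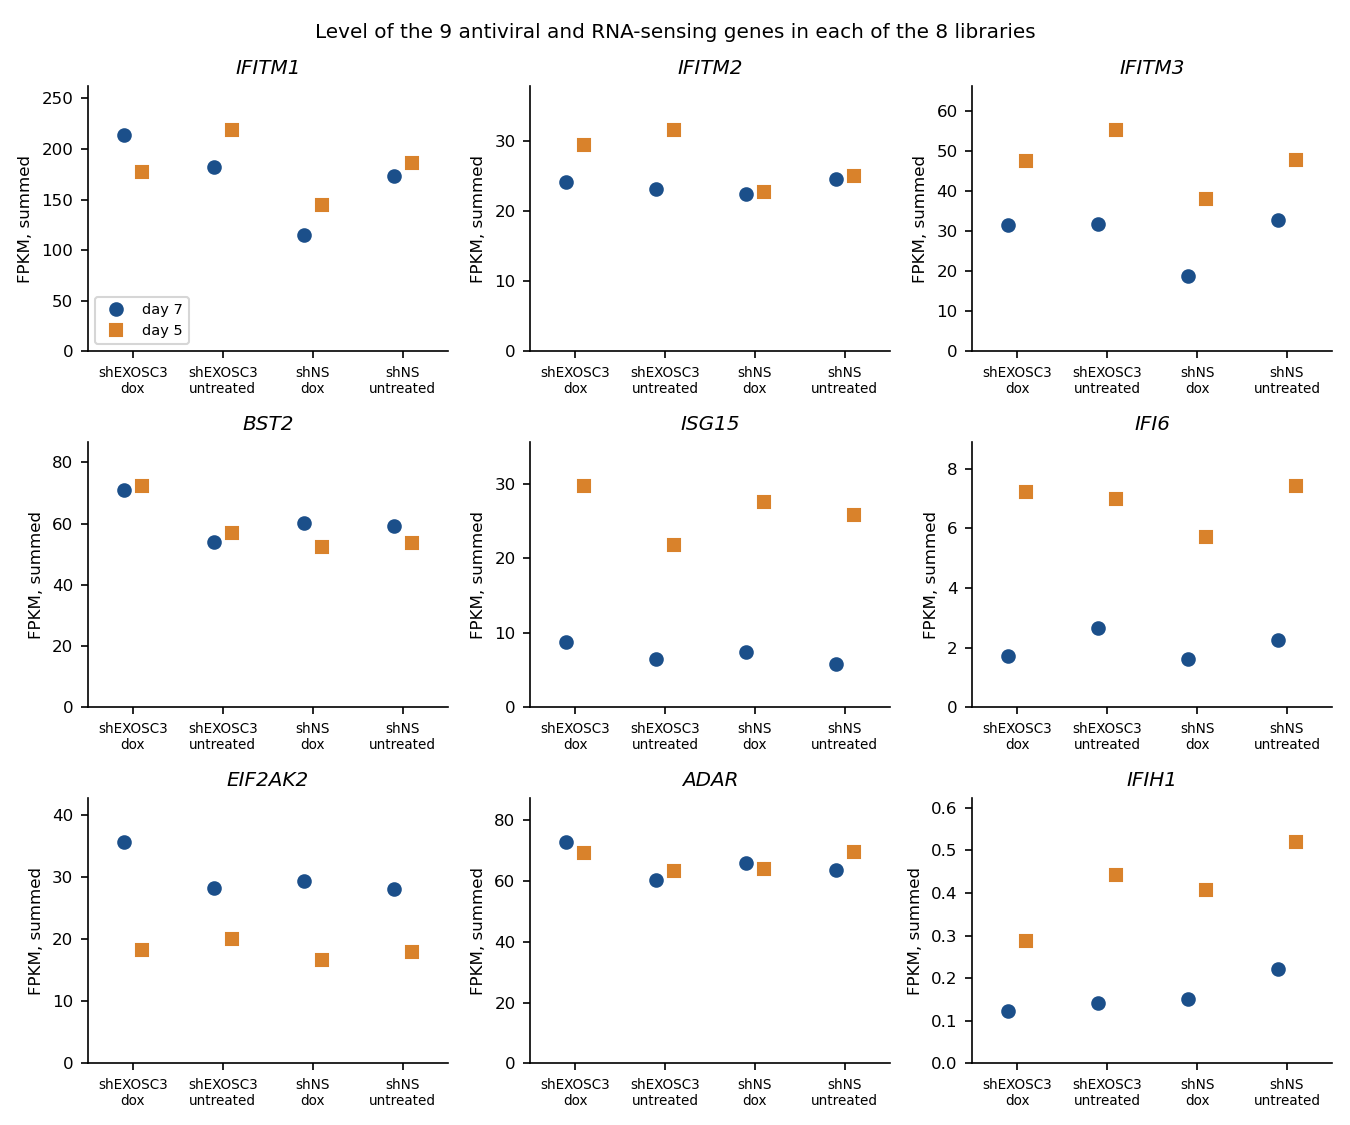
Summed FPKM (vertical axis) of the 9 genes in each of the 8 libraries, with shEXOSC3 left of shNS, doxycycline left of untreated, circles for day 7 and squares for day 5. Each point is 1 library; ISG15 and IFI6 sit lower on day 7 in every group, EIF2AK2 sits higher, and BST2 is highest in the doxycycline libraries of shEXOSC3.

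The main comparison asked whether these genes changed when doxycycline lowered EXOSC3, beyond what doxycycline did in the line with the non-silencing hairpin. BST2 with doxycycline stood at 131% and 127% of its untreated level in shEXOSC3 on days 7 and 5, against 102% and 98.1% in shNS. IFITM1 and IFITM3 stood at 117% and 99.5% of their untreated levels in shEXOSC3 on day 7, against 66.5% and 57.0% in shNS, and that gap was smaller on day 5. None of the 9 genes differed by 2-fold, and no group had a replicate. The log2 ratio is log2((FPKM + 1)/(FPKM + 1)) of the doxycycline over the untreated library of a table, which makes differences of weakly expressed genes look smaller than they are. Subtracting the shNS ratio of a day from the shEXOSC3 ratio gives what is called the adjusted log2 difference. With 1 library per group a gene was called by size alone, at 1 or more on the log2 scale, a 2-fold difference. None (0) of the 8 genes reached it on day 7, where 3.96% of all tested genes did, or on day 5, where 2.43% did, or on both days, where 0.435% did. Within shEXOSC3 none (0) passed on either day, against 2.92% and 2.05% of all genes on days 7 and 5, and within shNS none (0), against 2.05% and 1.32%. The 8 adjusted differences ran from -0.10 to 0.82 on day 7 and from -0.02 to 0.37 on day 5. Their medians were 0.24 and 0.18, beside medians of -0.01 on day 7 and -0.000756 on day 5 over all tested genes. IFITM1, IFITM2, IFITM3, BST2, ISG15 and ADAR, 6 of the 8, were above 0 on days 7 and 5 alike, where 26% of all genes were, and none (0) was below 0 on each day, where 28.9% were. The genes were chosen with earlier results of these data known, so such shares are descriptions only. By line, the shEXOSC3 ratio was above 0 at each time for BST2, ISG15 and ADAR, 3 of the 8 beside 31.7% of all genes, and the shNS ratio was below 0 at each time for IFITM1, IFITM2, IFITM3 and IFI6, 4 of the 8 beside 24.6%. With the doxycycline libraries of shEXOSC3 and shNS set against each other across tables, without the untreated ones, all 8 were above 0 on days 7 and 5, where 30.1% of all genes were, with EIF2AK2 at 0.12 on day 5 and IFI6 at 0.06 on day 7. In that comparison BST2 had 0.24 on day 7 and 0.45 on day 5, and ISG15 had 0.10 and ADAR 0.12 on day 5. It leaves in the gap between the untreated lines. On day 5 IFITM2, IFITM1 and IFITM3 had 0.36, 0.29 and 0.32 in it, beside untreated gaps of 0.33, 0.23 and 0.20. The untreated gap of day 5 was also above 0 for BST2 and EIF2AK2, at 0.09 and 0.15. It was below 0 for ISG15, IFI6 and ADAR, at -0.23, -0.08 and -0.13. The untreated gap of day 7 was above 0 for IFI6, ISG15, IFITM1 and EIF2AK2, at 0.16, 0.14, 0.07 and 0.01. For IFITM2, IFITM3, BST2 and ADAR it was below 0, at -0.08, -0.05, -0.13 and -0.08. IFI6 and ISG15 had 0.06 and 0.21 across tables on day 7, beside adjusted differences of -0.10 and 0.06. In bulk RNA, fewer cells of a type and less RNA per cell cannot be told apart.

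**Figure D2:**
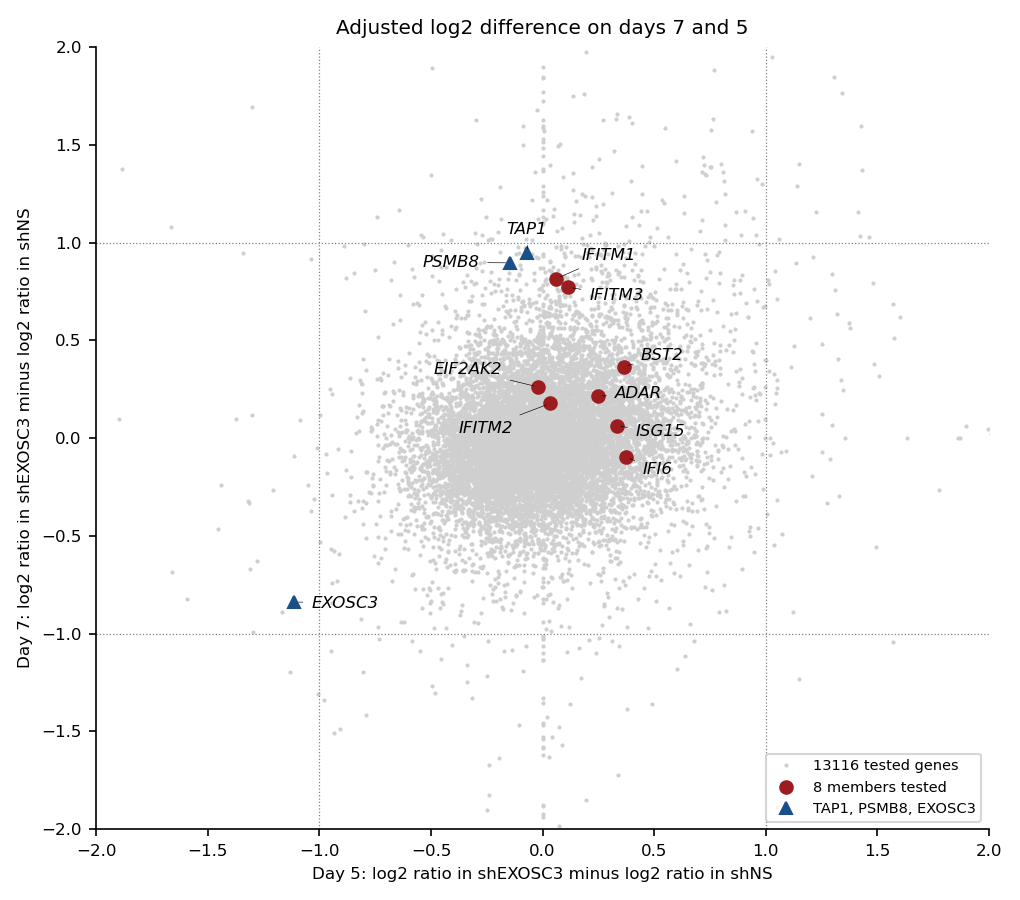
Adjusted log2 difference on day 5 (horizontal axis) against day 7 (vertical axis) for 13116 tested genes (grey), 8 of the antiviral and RNA-sensing genes (red circles) and TAP1, PSMB8 and EXOSC3 (blue triangles), with dotted lines at the 2-fold limits. The red circles lie inside both limits, IFITM1 and IFITM3 at 0.82 and 0.77 on day 7 and BST2 at 0.37 and 0.36 on days 7 and 5; 417 genes lie outside the plotted range.

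A limma fit across all tested genes, with the 2 days of each line as its observations, set the mean of the adjusted differences against the spread between days. It called 0 of 13116 genes at an adjusted p under 0.05 (Benjamini-Hochberg), while 769 (5.86%) had an unadjusted p under 0.05. Among the 8 genes BST2 was the 1 with an unadjusted p under 0.05. Its mean difference in the limma fit was 0.37 (SE 0.11) with the positive sign on 2 of 2 days, an unadjusted p of 0.0238 and an adjusted p of 0.747, which ran from 0.540 to 0.818 under the alternatives. For the other 7 the limma means lay between 0.10 and 0.44, with unadjusted p from 0.0791 to 0.559 and adjusted p from 0.747 to 0.880. EXOSC3 itself had a limma mean of -0.98 (SE 0.12) and an adjusted p of 0.747. Days are time points of 1 line each, so these p-values measure only the spread between days.

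BST2, the tether of budding virions (NM_004335, hg19 chr19:17513748-17516457), was highest in the 2 doxycycline libraries of shEXOSC3. On day 7 it had 71.1 FPKM with doxycycline and 54.1 FPKM untreated in shEXOSC3, against 60.1 and 59.2 FPKM in shNS. The day 5 values were 72.2 FPKM with doxycycline and 57.0 FPKM untreated in shEXOSC3, against 52.5 and 53.6 FPKM in shNS. The other 6 libraries of both days spanned 52.5 to 60.1 FPKM, below both of those 2 libraries. Its log2 ratios were 0.39 and 0.34 in shEXOSC3 on days 7 and 5, against 0.02 and -0.03 in shNS. In the authors' deposited tables its p was 0.225 on day 7 and 0.292 on day 5 in shEXOSC3, for 1 library against 1.

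IFITM1 (NM_003641, hg19 chr11:313991-315272), which acts mainly at the cell surface, had 214 FPKM with doxycycline and 182 FPKM untreated in shEXOSC3 on day 7, against 115 and 173 FPKM in shNS. On day 5 it had 177 FPKM with doxycycline and 219 FPKM untreated in shEXOSC3, against 144 and 186 FPKM in shNS. The lowest of the 8 libraries was shNS with doxycycline on day 7. The log2 ratios were 0.23 in shEXOSC3 and -0.58 in shNS on day 7, and -0.30 and -0.37 on day 5, so that more of the day 7 difference of 0.82 came from shNS than from shEXOSC3. In the authors' deposited table IFITM1 had a p of 0.0252 and a q of 0.636 in shNS on day 7, and a p of 0.446 in shEXOSC3.

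IFITM3, which acts in endosomes (hg19 chr11:319673-320914), had 31.5 FPKM with doxycycline and 31.7 FPKM untreated in shEXOSC3 on day 7, against 18.7 and 32.8 FPKM in shNS. On day 5 IFITM3 had 47.5 FPKM with doxycycline and 55.2 FPKM untreated in shEXOSC3, against 37.9 and 47.8 FPKM in shNS. As for IFITM1, the lowest library was shNS with doxycycline on day 7, and in both lines the doxycycline library of day 5 was the lower of its pair. Its log2 ratios were -0.01 in shEXOSC3 and -0.78 in shNS on day 7, and -0.21 and -0.33 on day 5, giving adjusted differences of 0.77 and 0.12. By the transcript with the highest mean alone, NM_021034, the day 7 difference was 0.01, since that transcript was listed near 0 in all 4 libraries of day 7. IFITM2 (NM_006435, hg19 chr11:308107-309410), the third of the cluster, differed less, with 24.1 FPKM with doxycycline and 23.2 FPKM untreated in shEXOSC3 and 22.5 and 24.5 FPKM in shNS on day 7. Its day 5 values were 29.4 FPKM with doxycycline and 31.5 FPKM untreated in shEXOSC3, against 22.7 and 24.9 FPKM in shNS, and its adjusted differences were 0.18 and 0.03 on days 7 and 5. IFITM2 was higher in both shEXOSC3 libraries of day 5 than in the other 6 libraries.

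ISG15, the ubiquitin-like modifier (NM_005101, hg19 chr1:948847-949919), was higher with doxycycline than untreated in all 4 pairs. On day 7 ISG15 had 8.70 FPKM with doxycycline and 6.46 FPKM untreated in shEXOSC3, against 7.41 and 5.75 FPKM in shNS. On day 5 the values were 29.6 FPKM with doxycycline and 21.8 FPKM untreated in shEXOSC3, against 27.6 and 25.7 FPKM in shNS. Its log2 ratios in shEXOSC3 were 0.38 and 0.43 on days 7 and 5, and in shNS 0.32 and 0.10, which left adjusted differences of 0.06 and 0.33. IFI6 (hg19 chr1:27992572-27998724) had 1.74 FPKM with doxycycline and 2.65 FPKM untreated in shEXOSC3 on day 7, against 1.62 and 2.27 FPKM in shNS. On day 5 IFI6 had 7.24 FPKM with doxycycline and 6.98 FPKM untreated in shEXOSC3, against 5.71 and 7.42 FPKM in shNS. The doxycycline library was the lower one in 3 of these 4 pairs, and the adjusted differences of IFI6 changed sign between the days, at -0.10 on day 7 and 0.37 on day 5.

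EIF2AK2, the kinase PKR (hg19 chr2:37332284-37384190), had 35.6 FPKM with doxycycline and 28.2 FPKM untreated in shEXOSC3 on day 7, against 29.4 and 28.0 FPKM in shNS. On day 5 EIF2AK2 had 18.3 FPKM with doxycycline and 19.99 FPKM untreated in shEXOSC3, against 16.7 and 18.0 FPKM in shNS. The day 7 library of shEXOSC3 with doxycycline was the highest of the 8, and the adjusted differences were 0.26 on day 7 and -0.02 on day 5. ADAR, the editing enzyme (hg19 chr1:154554534-154600456), had 72.8 FPKM with doxycycline and 60.3 FPKM untreated in shEXOSC3 on day 7, against 66.1 and 63.6 FPKM in shNS. Its day 5 levels were 69.4 FPKM with doxycycline and 63.3 FPKM untreated in shEXOSC3, against 64.0 and 69.5 FPKM in shNS. ADAR was the steadiest of the 9 genes, its highest library being 1.21 times its lowest, and its adjusted differences were 0.21 and 0.25. IFIH1, the sensor MDA5 (NM_022168, hg19 chr2:163123589-163175218), was at 0.124 FPKM with doxycycline and 0.143 FPKM untreated in shEXOSC3 on day 7, and at 0.151 and 0.222 FPKM in shNS. On day 5 IFIH1 had 0.287 FPKM with doxycycline and 0.442 FPKM untreated in shEXOSC3, against 0.406 and 0.519 FPKM in shNS. The doxycycline library was the lower one in all 4 pairs, all under the minimum of 1 FPKM.

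**Figure D3:**
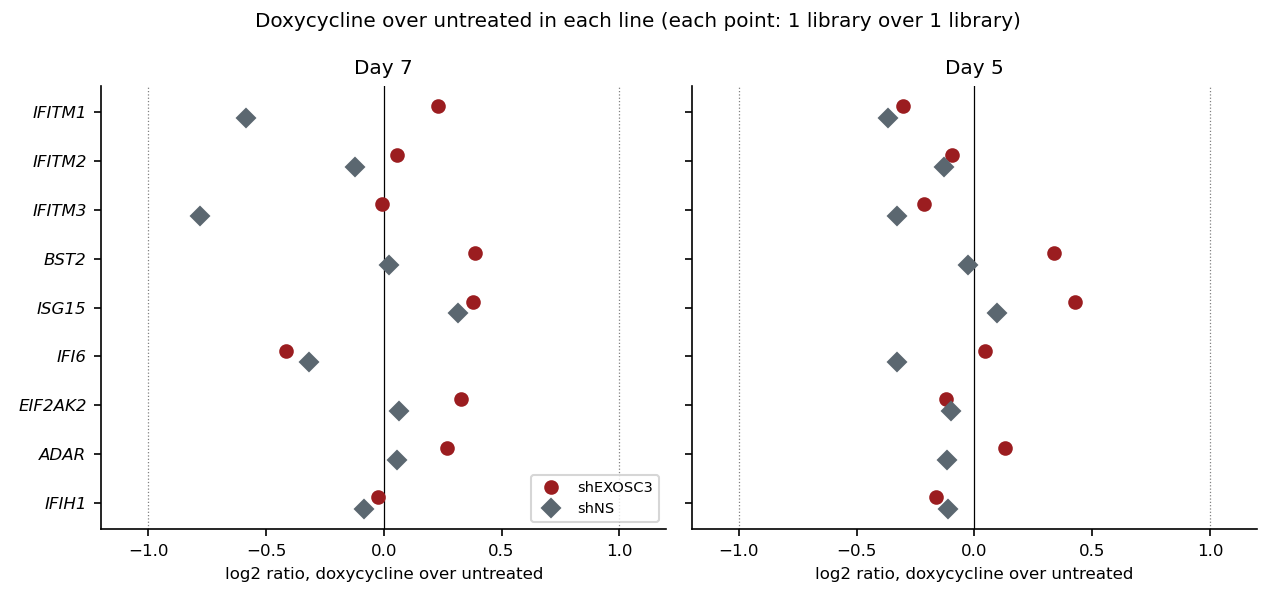
Log2 ratio of doxycycline over untreated (horizontal axis) for each of the 9 genes, day 7 in the left panel and day 5 in the right, with circles for shEXOSC3, diamonds for shNS and dotted lines at the 2-fold limits. Each point is 1 library over 1 library; for IFITM1 and IFITM3 on day 7 the shNS diamonds at -0.58 and -0.78 lie far left of the circles, whereas BST2 has its circles at 0.39 and 0.34 and its diamonds near 0.

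Splitting the sums by transcript showed which of these genes rest on one RNA and which on an estimated division among several. IFITM1, IFITM2, BST2, ISG15 and IFIH1 have 1 RefSeq transcript each in the tables, IFITM3 has 2, EIF2AK2 and IFI6 have 3 and ADAR has 5. IFITM3 was assigned almost wholly to the noncoding entry NR_049759 on day 7, at 31.5 FPKM with doxycycline and 31.7 FPKM untreated in shEXOSC3 and 18.7 and 32.8 FPKM in shNS. On day 5 the coding NM_021034 held 47.5 FPKM with doxycycline and 45.9 FPKM untreated in shEXOSC3, and 37.9 and 38.7 FPKM in shNS. On that day NR_049759 was listed at 9.29 FPKM in untreated shEXOSC3 and 9.17 FPKM in untreated shNS, and at or near 0 in both doxycycline libraries. NM_022872 of IFI6 behaved alike in shEXOSC3, listed at or near 0 with doxycycline on both days and at 0.824 FPKM and 1.70 FPKM untreated on days 7 and 5. By its transcript with the highest mean, NM_002038, IFI6 had an adjusted difference of 1.02 on day 5, past the 2-fold limit, where its sum had 0.37, and of 0.27 on day 7, where its sum had -0.10. On day 5 NM_002038 had 7.23 FPKM with doxycycline and 5.27 FPKM untreated in shEXOSC3, against 3.21 and 5.49 FPKM in shNS. EIF2AK2 likewise had 0.51 on day 5 by NM_001135651 and -0.02 by its sum, and 0.08 on day 7, where its sum had 0.26. On day 5 NM_001135651 had 16.3 FPKM with doxycycline and 13.5 FPKM untreated in shEXOSC3, against 12.6 and 15.2 FPKM in shNS. NM_001135652 was listed near 0 with doxycycline and at 4.79 FPKM untreated in shEXOSC3, against 1.05 FPKM and near 0 in shNS. ADAR had 0.59 on day 7 and 0.14 on day 5 by NM_001025107, beside 0.21 and 0.25 by its sum.

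ADAR is made in a short, constitutive form and a longer form that interferon is known to induce from a separate promoter. Its accessions were joined to GENCODE transcripts with open reading frames of 931 codons for 2 entries, the short form, and of 1226 or 1200 codons for 3 entries, the long form. The short form held most of the FPKM in all 8 libraries. On day 7 the long form made up 27.2% of the ADAR total with doxycycline and 27.5% untreated in shEXOSC3, against 42.0% and 22.4% in shNS. Its share on day 5 was 34.9% with doxycycline and 32.9% untreated in shEXOSC3, against 21.2% and 23.6% in shNS. The library that stood apart was again shNS with doxycycline on day 7, through NM_015841 at 24.6 FPKM, against 9.61 FPKM untreated. In the authors' deposited table that entry had a p of 0.0159 and a q of 0.582, and NR_049759 of IFITM3 a p of 0.0146 and a q of 0.575 in the same table. These and IFITM1 were the 3 of 12 tested entries with a p under 0.05 in shNS on day 7, while 0 of 12 had one in shEXOSC3 on day 7, 0 of 16 in shEXOSC3 on day 5 and 0 of 17 in shNS on day 5. The smallest q among the entries of the 9 genes in any of the authors' deposited tables was 0.575.

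**Figure D4:**
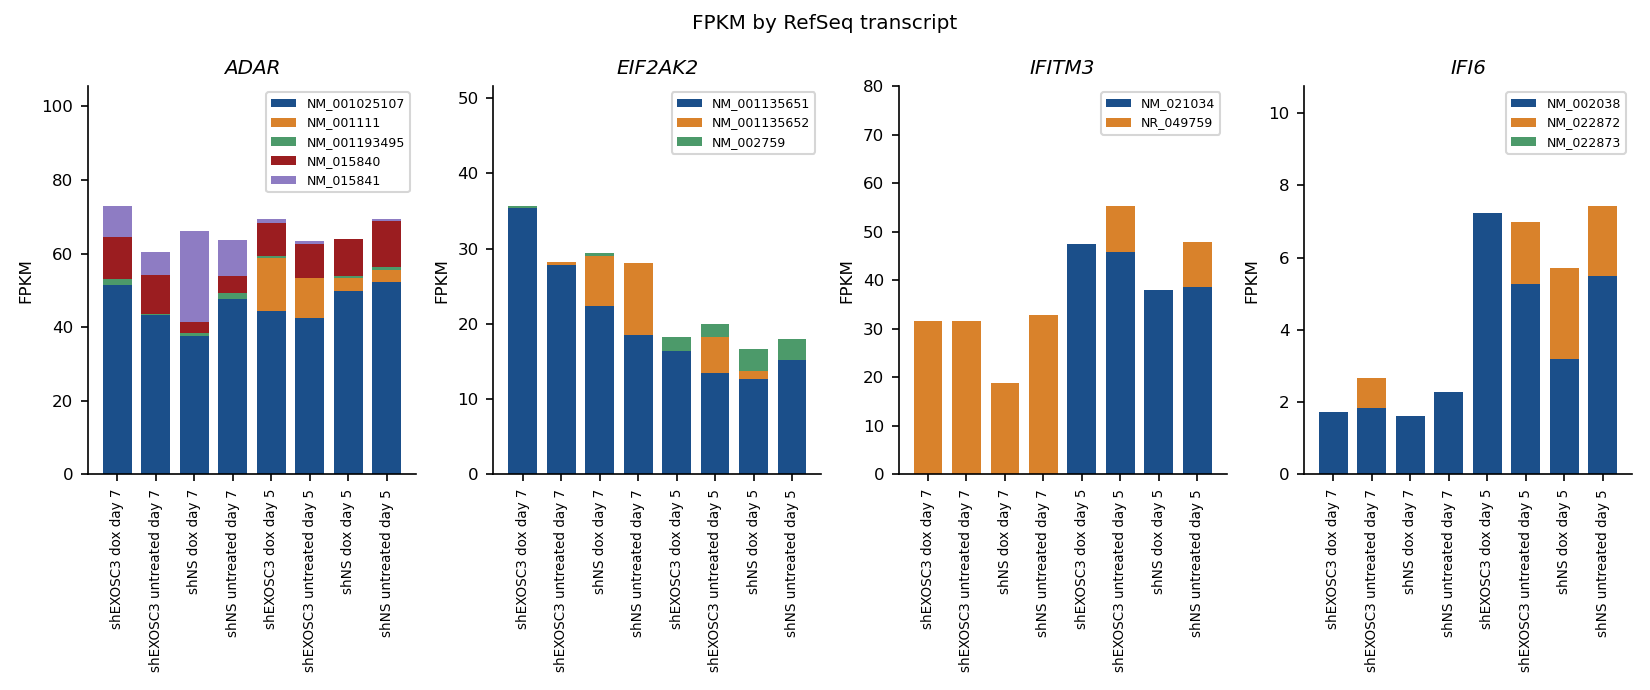
FPKM of each RefSeq transcript, stacked to the gene's sum (vertical axis), in the 8 libraries for the 4 genes with several transcripts. IFITM3 is held by NR_049759 on day 7 and mostly by NM_021034 on day 5, and ADAR keeps sums between 60.3 and 72.8 FPKM while its make-up varies.

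The days were then set side by side in each line and treatment. The tables of the days were made separately, and the median log2 ratio of day 7 over day 5 across all genes was -0.07 in shEXOSC3 with doxycycline, -0.08 untreated, -0.09 in shNS with doxycycline and -0.09 untreated. ISG15 and IFI6 were at least 2-fold lower on day 7 in all 4 pairs of groups, 2 of the 8 genes, where 8.73% of all tested genes were. The log2 ratio of ISG15 lay between -1.98 and -1.61 and that of IFI6 between -1.59 and -1.13. None (0) was 2-fold higher in all 4 pairs, where 4.36% of all genes were, although EIF2AK2 was higher in each pair, by 0.92 and 0.47 in shEXOSC3 with doxycycline and untreated and by 0.78 and 0.61 in shNS. Lower on day 7 in each pair, by any amount, were IFITM2, IFITM3, ISG15 and IFI6, 4 of the 8, beside 44.2% of all genes, and higher in each pair was EIF2AK2, 1 of the 8, beside 33.6%. IFITM3 lay between -0.98 and -0.53 on the log2 scale. Its FPKM were held by NR_049759 on day 7 and mostly by NM_021034 on day 5, and the part of that split in its ratio was not tested. BST2 and ADAR stayed between -0.13 and 0.19. IFITM1 was higher on day 7 in shEXOSC3 with doxycycline, at 0.28, and lower in the other 3 pairs, at -0.32 to -0.10. The days also differ in library composition as given above, and the part of that in these ratios was not tested.

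**Figure D5:**
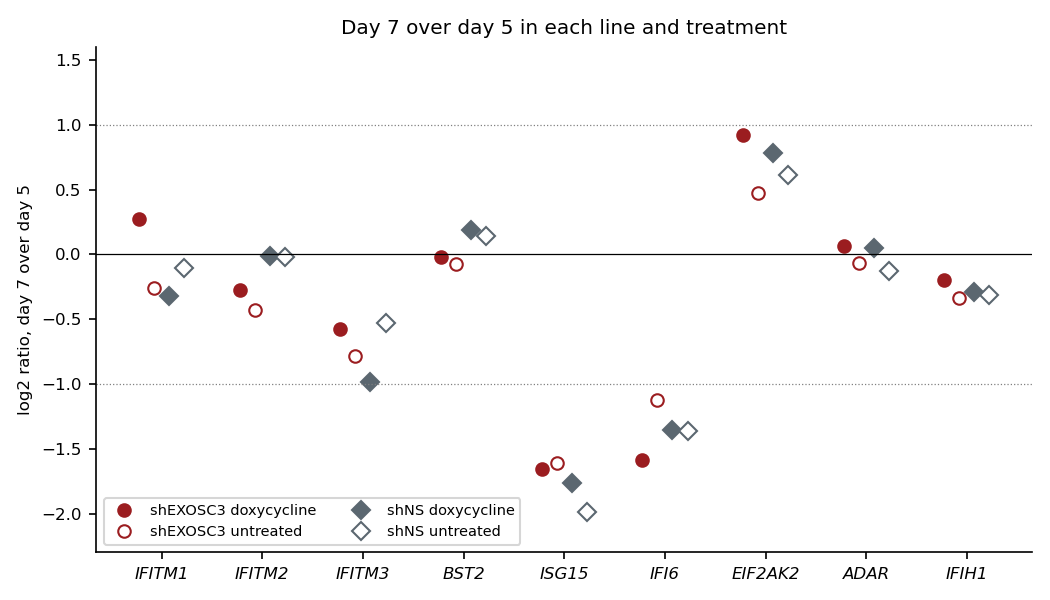
Log2 ratio of day 7 over day 5 (vertical axis) for the 9 genes, circles for shEXOSC3 and diamonds for shNS, filled for doxycycline and open for untreated, with dotted lines at the 2-fold limits. Each point compares 2 libraries of separately made tables; ISG15 and IFI6 lie below the lower limit in all 4 pairs, and EIF2AK2 lies above 0 in all 4.

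Without doxycycline the lines were within 2-fold of each other for these genes. Untreated shEXOSC3 over untreated shNS gave log2 ratios between -0.13 and 0.16 on day 7 and between -0.23 and 0.33 on day 5 for the 8 genes. None (0) reached 2-fold on either day, where 1.83% of all genes did on day 7, 1.78% on day 5 and 0.511% on both. The largest was IFITM2 on day 5, at 0.33. The range of day 5 was no narrower than that of the adjusted differences of day 5, which ran from -0.02 to 0.37. The medians over all genes were 0.02 and 0.00 on the log2 scale, so the tables of the lines had nearly the same scale.

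The interferon pathway around these genes was described from 9 gene lists, by the same measures. Interferons themselves were hardly present, as none (0) of 10 interferon genes had a mean of 1 FPKM, 8 were listed at 0 in all libraries, and the highest single value was 1.53 FPKM, for IFNK. Of 17 receptor and signalling genes 15 passed the minimum, 3 with adjusted differences below 0 and 2 above 0 at both times, and medians of -0.07 and 0.02 on days 7 and 5. Among receptor subunits, IFNAR1 had adjusted differences of 0.02 and 0.32 on days 7 and 5, IFNLR1 of -0.07 and 0.27, and IFNAR2 of -0.08 and -0.37. IFNGR1, the ligand-binding chain of the interferon gamma receptor, had 28.6 FPKM with doxycycline and 36.0 FPKM untreated in shEXOSC3 on day 7, against 34.4 and 34.2 FPKM in shNS, with adjusted differences of -0.33 and -0.35 on days 7 and 5. Its unadjusted p in the limma fit was 0.0378 and its adjusted p 0.747.

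Among 32 other interferon-stimulated effectors, 12 had a mean of at least 1 FPKM, MX1 among them. OAS1, RSAD2 and IFI44L lay far below that minimum, whereas IFIT1 missed it only narrowly. The 12 had medians of 0.11 on day 7 and -0.14 on day 5, 8 of opposite sign on the days, 3 below 0 on each and 1 above 0 on each. TRIM22, a restriction factor and the most abundant, had 80.7 FPKM with doxycycline and 59.1 FPKM untreated in shEXOSC3 on day 7, against 52.6 and 52.3 FPKM in shNS. On day 5 TRIM22 had 47.6 FPKM with doxycycline and 44.4 FPKM untreated in shEXOSC3, against 40.4 and 36.7 FPKM in shNS, so its adjusted differences were 0.44 and -0.04. MX1, a GTPase that blocks influenza viruses, had 0.49 and 0.07 at levels of 1.24 to 2.07 FPKM. IFIT5, which binds RNA ends, had -0.36 and -0.37, and the exonuclease ISG20 had -0.16 and -0.36 at levels of 0.906 to 2.24 FPKM.

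The machinery for ISG15 conjugation had 3 of 5 genes above the minimum. HERC5, the main ligase for ISG15, had 22.5 FPKM with doxycycline and 24.8 FPKM untreated in shEXOSC3 on day 7, against 14.5 and 20.7 FPKM in shNS. Its adjusted differences were 0.35 on day 7 and 0.00 on day 5, those of the ligase TRIM25 were 0.08 and 0.26, and those of the conjugating enzyme UBE2L6 were -0.08 and -0.21. Of 17 RNA sensors and adaptors 12 passed, with medians of 0.03 and -0.07, 2 below 0 and 4 above 0 at both times. MAVS, the adaptor of IFIH1, had 0.18 and 0.20, the adaptor MYD88 had 0.02 and 0.65, the kinase TBK1 0.01 and -0.13, TRAF3 -0.17 and -0.10, and the transcription factor IRF7 -0.11 and -0.05. Of 10 DNA sensors and nucleases of nucleic acids 7 passed, with medians of -0.13 and -0.33. On both days 5 of them were below 0 and 2 above 0, where 28.9% and 26% of all tested genes were. SAMHD1, which degrades nucleotides, had 15.2 FPKM with doxycycline and 20.1 FPKM untreated in shEXOSC3 on day 7, against 19.6 and 19.5 FPKM in shNS, with an unadjusted p of 0.0432 and an adjusted p of 0.747 in the limma fit. RNASEH2A, the catalytic subunit of an RNase that removes RNA paired with DNA, had adjusted differences of -0.27 and -0.34, its partner RNASEH2C had 0.14 and 0.00, and the DNA sensor IFI16 had 0.32 on both days. IFI16 was weakly expressed, at 0.470 to 2.39 FPKM over the 8 libraries and at most 0.839 FPKM on day 5. Of 11 double-stranded RNA binding proteins and partners of PKR 10 passed, with medians of -0.04 and -0.18. At both times 7 were below 0 and none (0) above 0, beside 28.9% and 26% of all tested genes. ILF2, the most abundant of them, had -0.03 and -0.39, STAU2 had 0.06 and -0.41, STAU1 0.05 and -0.00, and ADARB1, a relative of ADAR, -0.01 and -0.09. None (0) of the genes above the minimum in these lists had an adjusted difference of 2-fold on either day. Of all tested genes 3.96% and 2.43% did, as given above. Below the minimum, HLA-F of the antigen presentation list had -1.24 on day 7, at levels of up to 1.07 FPKM.

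In antigen presentation 10 of 14 genes passed the minimum, with medians of -0.02 and -0.08 on days 7 and 5. TAP1, a subunit of the peptide transporter, had 2.78 FPKM with doxycycline and 2.02 FPKM untreated in shEXOSC3 on day 7, against 1.86 and 3.41 FPKM in shNS. PSMB8, an immunoproteasome subunit, had 7.22 FPKM with doxycycline and 6.66 FPKM untreated in shEXOSC3 on day 7, against 5.69 and 10.6 FPKM in shNS. In both, as in IFITM1 and IFITM3, the larger ratio of day 7 was that of shNS, at -0.62 for TAP1 and -0.80 for PSMB8, beside 0.32 and 0.10 in shEXOSC3. Their adjusted differences were 0.95 and 0.90 on day 7 and -0.07 and -0.15 on day 5. B2M, the light chain of class I molecules, had 107 FPKM with doxycycline and 140.2 FPKM untreated in shEXOSC3 on day 7, against 99.98 and 116 FPKM in shNS, with adjusted differences of -0.18 and -0.49, and PSMB10 had -0.22 and -0.19. The relatives IFITM5 and IFITM10 did not reach a mean of 1 FPKM, with 0.325 FPKM as the highest value. The promoter core was also set against the readout of all genes: 375 tested genes with the response element core in a window had medians of -0.02 on both days, and 9743 tested genes with a window and no match had medians of -0.01 and -0.02.

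The genes most like each member across the 8 libraries were sought by Pearson r of log2(FPKM + 1) among 8957 candidates with a mean of at least 5 FPKM. Each was picked as the highest of 8957 candidates over 8 libraries, so a high r and a like pattern follow from that choice. For BST2 the closest was PCDHB5, with an r of 0.970, and 8 candidates had an r over 0.9. PCDHB5 had 20.3 FPKM with doxycycline and 13.9 FPKM untreated in shEXOSC3 on day 7, against 15.8 and 16.1 FPKM in shNS, and on day 5 19.3 and 15.4 FPKM, against 14.5 and 13.4 FPKM. For IFITM1 the closest was RNF144B with 0.931 and 5 candidates over 0.9, and for IFITM2 SNRPA with 0.950 and 11 candidates. For IFITM3 it was ANAPC15 with 0.972 and 90 candidates over 0.9, and for ADAR PRH1 with 0.941 and 3 candidates. The r of ISG15 with MOGS was 0.996, that of IFI6 with UCK1 0.994 and that of EIF2AK2 with ZNF141 0.992, but 2281, 2212 and 1276 candidates had an r over 0.9 with these 3 genes. For those 3 the 8 libraries fall into separate clusters by day, and their r mostly reads the gap between the days. Libraries of a table share a line, a day and their normalization.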

How the data were processed

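Total RNA of the 8 groups was made into rRNA-depleted ScriptSeq v2 libraries, per the labels' protocols. CASAVA 1.8, TopHat and Cufflinks were used with hg19, per the submitters' processing notes. Not given in the sources used here are other versions, the annotation, how libraries were normalized and whether counting used strand. Genes that overlap on either strand can therefore not be separated. The authors deposited FPKM of 49235 RefSeq transcripts in 4 tables, per the file headers, each with the authors' p-value and q-value for 1 library against 1. Read counts are not in use here and total depth is unknown.

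Accessions were matched to symbols through a RefSeq table, used for names only (97.8% matched, 1088 transcripts had no symbol). FPKM were summed per gene, 55 genes with a failed estimate were left out, and genes with a mean of at least 1 FPKM over the 8 libraries (13116) were tested, with a pseudocount of 1 FPKM. Starts are printed 1-based, 1 above the tables' values. The day-averaged effect was fitted with limma 3.58.1 in R 4.3.3 on 4 log2 ratios with an expression trend (2 residual degrees of freedom, threshold of 0.05 after Benjamini-Hochberg adjustment over all genes), and was tested on simulated data. With 1 library per group there is no replicate check, and p-values measure only the spread between the days. Named genes were the 9 members, EXOSC3, and from each list the 2 with the highest and the 2 with the lowest mean adjusted difference plus the most abundant; 1 gene so named is not reported here. The members and lists were chosen with earlier results of these data known. Alternatives were other pseudocounts and minimums, the transcript with the highest mean, doxycycline libraries compared across tables, median-of-ratios scaling, leaving out only failed transcripts, and day as a term. Promoters are RefSeq sequences on GRCh38.p14.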

Additional observations from a re-analysis of the deposited data

Results flagged for a closer look

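In 4 of the named pathway genes the doxycycline ratio had one sign in shEXOSC3 on both days and the opposite sign in shNS on both days, as in 1242 (9.47%) of the 13116 tested genes. These 4 had been named for the highest or lowest mean adjusted differences of their lists. That choice uses the same ratios, so their number cannot be compared with the share of all genes. The difference between the lines was not tested for this pattern. IFI16, a DNA sensor, had log2 ratios of 0.22 and 0.13 on days 7 and 5 in shEXOSC3, against -0.10 and -0.19 in shNS, a mean difference of 0.32. MX1, a GTPase, had 0.18 and 0.06 in shEXOSC3, against -0.31 and -0.01 in shNS, a mean difference of 0.28. IFNGR1, a receptor chain for interferon gamma, had -0.32 and -0.21 in shEXOSC3, against 0.01 and 0.14 in shNS, a mean difference of -0.34. ISG20, an exonuclease, had -0.12 and -0.11 in shEXOSC3, against 0.03 and 0.25 in shNS, a mean difference of -0.26. IFI16, MX1 and ISG20 were weakly expressed, at no more than 2.39, 2.07 and 2.24 FPKM in any library. None (0) of the 9 antiviral and RNA-sensing genes showed this pattern among the 8 tested.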

How the results depend on the processing

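With a pseudocount of 0.1 FPKM the size rule called 833 genes on day 7 and 539 on day 5, and 64 were higher on both days, against 519, 319 and 36 in the main values. With a pseudocount of 5 FPKM, 21 were higher on both days. A minimum mean of 5 FPKM left 344 and 208 called genes and a day 5 median of 0.12 over the members, and no minimum gave a median of 0.12. By the transcript with the highest mean, 1 member (IFI6) was called on day 5, 1423 and 870 genes were called on days 7 and 5, 73 were higher and 66 lower on both days, and the day 5 median of the members was 0.24, against 0.18. With doxycycline libraries compared across tables, 19 genes were higher on both days and the day 5 median was 0.29. The cause was not tested. The other 94 recomputed main results stayed within 1.5 times the count, within the spread between days or on the same side of the threshold, and 0 changed sign. The labels give no replicate numbers, so libraries could be paired only by line and day. With day as a term in the limma fit, BST2 had an unadjusted p of 0.0412 and an adjusted p of 0.724. With 1 library per group none could be left out, total depth is unknown, and IFIH1 is too low for a comparison.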
